A study of Mus musculus with 2 samples.

Results

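The genes described here build and police the connection between chromosomes and the mitotic spindle. They are 44 genes of the centromere, kinetochore, spindle checkpoint, chromosomal passenger complex, condensin complex and spindle, taken by symbol from a table of 17359 genes, and all 44 were found there. The RNA came from mouse neural stem cells, dividing cells of the brain whose progeny become neurons and glia. The siChd4 library came from cells transfected with an siRNA against Chd4 (genotype given as Chd4 knockdown), and the siSCR library from cells given a scrambled siRNA (genotype given as control). Chd4 encodes an ATPase that drives the NuRD chromatin remodeller, and the series as a whole concerns the nucleoporin Seh1 in neurogenesis. Each group held 1 library, so no difference below has a check against the spread between cultures and none was tested. The labels do not state the age of the donor animals, the dose of siRNA or the hours between transfection and harvest.

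A kinetochore is the protein assembly that forms on centromeric chromatin and captures spindle microtubules. Its inner layer binds nucleosomes that carry the histone variant Cenpa, and its outer layer binds microtubules and carries the spindle checkpoint, which holds back anaphase until every chromosome is attached. Condensins compact the chromosomes beforehand, and the anaphase-promoting complex ends the process by marking securin and cyclin B for destruction. Most of these genes are transcribed late in the cell cycle, so in a bulk sample of cycling stem cells their level depends on how many cells are close to division as well as on the RNA in each cell. Fewer such cells and less RNA per cell cannot be told apart here.

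The siChd4 library held 20072009 estimated counts and the siSCR library 19816811. Chd4 itself was at 203 TPM in siChd4 cells and 250 TPM in siSCR cells, a TPM fold of 0.815 with a 95% counting interval from 0.795 to 0.836. On the log2 scale of TPM plus 1 its ratio was -0.29. Its transcript is long, and after the trend of log2 ratio with transcript length over all genes (described below) was subtracted its ratio was -0.14, compared with -0.26 for the median member. The stem cell markers Sox2 (336 TPM with siChd4 and 314 TPM with siSCR), Nes (396 TPM with siChd4 and 328 TPM with siSCR) and Fabp7 (7004 TPM with siChd4 and 6105 TPM with siSCR) were abundant in both libraries. These 3 were among the 7 of 12 listed stem cell and radial glia markers that were higher in siChd4. The 5 lower ones were Slc1a3 (878 TPM with siChd4 and 1254 TPM with siSCR), Notch1 (60.8 TPM with siChd4 and 90.8 TPM with siSCR), Sox1 (35.3 TPM with siChd4 and 38.7 TPM with siSCR), Pax6 (18.6 TPM with siChd4 and 21.6 TPM with siSCR) and Prom1 (4.72 TPM with siChd4 and 8.37 TPM with siSCR). TPM is transcript abundance scaled to the same total in each library. All intervals are exact 95% intervals from the counts and cover counting error only.

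Of the 44 members, 42 were lower in siChd4, where 55.3% of the 12882 genes compared (those whose TPM averaged at least 1 over the libraries) were lower. Only Ndc80 and Cenpt were higher, and the counting intervals of both include 1. The members summed to 4462 TPM in siChd4 cells and 5511 TPM in siSCR cells, a ratio of 0.810. Their median log2 ratio of siChd4 over siSCR, on the TPM plus 1 scale, was -0.29, and the middle 50% of them lay between -0.38 and -0.21. Over all genes compared the median was -0.04 and the middle 50% ran from -0.24 to 0.17. At least 1.2-fold lower were 24 members, where the share of all genes was 22.3%, and 0 were 1.2-fold higher (18.1% of all genes). At least 1.5-fold lower were 2 members, Knl1 and Cenpf, where the share of all genes was 4.47%, and 0 were 1.5-fold higher (6.75% of all genes). The pattern is therefore many small differences in one direction, with few large ones. The counting interval of the TPM ratio lay wholly below 1 for 42 members (34.1% of all genes), and that of the count-per-million ratio for 37 (28.1% of all genes).

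Levels spread over more than a factor of 10 among the members and kept nearly the same order in the libraries, with a Spearman rho of 0.985 across the 44 genes, which are not independent replicates. Top2a was the most abundant, at 334 TPM in siChd4 cells and 456 TPM in siSCR cells. Ube2c, Cdc20, Tpx2 and Cenpa followed in siChd4, between 208 and 289 TPM. Cenpl was the least abundant in each library (20.3 TPM in siChd4 cells and 24.4 TPM in siSCR cells). Every member was far above the counting floor: the lowest, Cenpw, had 206 estimated counts in siChd4 cells and 240 in siSCR cells. The members' log2 ratio did not follow their level in siSCR (Spearman rho -0.01 across the 44 genes).

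**Figure D1:**
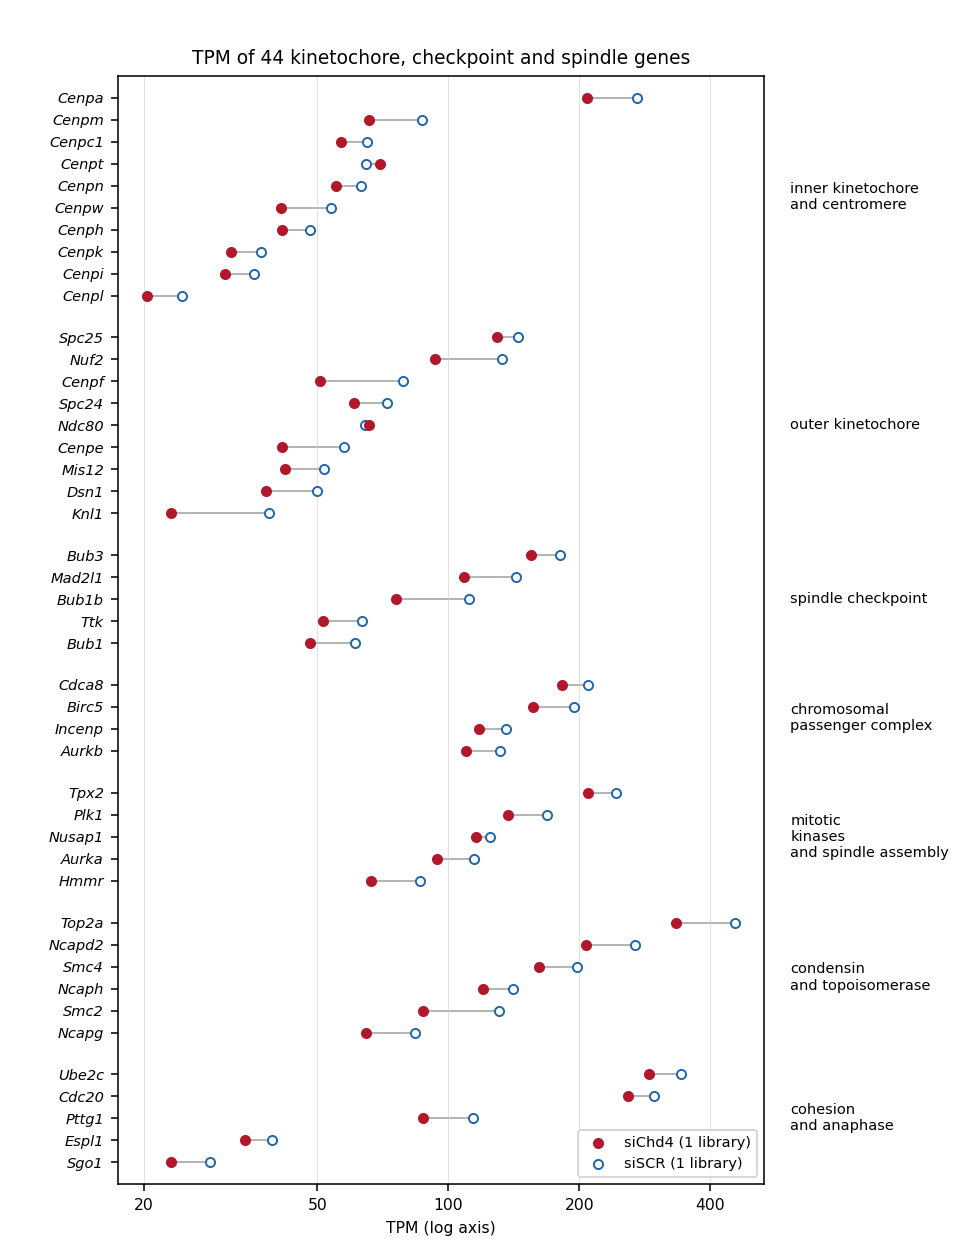
TPM of each member (log axis) in the siChd4 library (filled) and the siSCR library (open), grouped by role and ordered within a role by the siSCR level; each point is 1 library. The filled points lie left of the open ones for 42 of 44 genes, with Ndc80 and Cenpt the exceptions.

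The members share a promoter feature that the choice by name did not use. Many genes of late cell cycle carry a cell cycle homology element, which the MuvB complex binds through Lin54, near CCAAT boxes, which the factor NF-Y binds. The promoter windows of RefSeq on build GRCm38.p6, from 250 bases before to 50 after the annotated start, were found for 39 members (not for Aurkb, Incenp, Smc4, Spc24 and Tpx2). They were searched on both strands for TTTGAA or TTCGAA, forms of the homology element, and for CCAAT. The windows below were taken as the member with the lowest log2 ratio in a role among those holding a match, for the 6 lowest such roles. Each runs 5′ to 3′ along the gene's strand, with matches to the motifs, or their reverse complements, in capitals.

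Knl1 (chr2:119046869-119047168, strand plus): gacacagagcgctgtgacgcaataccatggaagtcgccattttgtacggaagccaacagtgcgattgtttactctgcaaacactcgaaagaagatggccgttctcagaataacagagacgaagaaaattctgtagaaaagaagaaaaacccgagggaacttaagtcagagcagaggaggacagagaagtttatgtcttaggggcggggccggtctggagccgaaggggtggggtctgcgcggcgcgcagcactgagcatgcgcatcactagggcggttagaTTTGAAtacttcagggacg
Smc2 (chr4:52438971-52439270, strand plus): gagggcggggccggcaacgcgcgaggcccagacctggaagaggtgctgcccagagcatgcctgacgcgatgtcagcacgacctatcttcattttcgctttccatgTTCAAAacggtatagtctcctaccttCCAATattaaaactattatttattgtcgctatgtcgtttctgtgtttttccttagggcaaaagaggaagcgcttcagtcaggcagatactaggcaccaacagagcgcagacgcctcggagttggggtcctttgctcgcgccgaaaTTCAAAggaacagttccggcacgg
Bub1b (chr2:118597961-118598260, strand plus): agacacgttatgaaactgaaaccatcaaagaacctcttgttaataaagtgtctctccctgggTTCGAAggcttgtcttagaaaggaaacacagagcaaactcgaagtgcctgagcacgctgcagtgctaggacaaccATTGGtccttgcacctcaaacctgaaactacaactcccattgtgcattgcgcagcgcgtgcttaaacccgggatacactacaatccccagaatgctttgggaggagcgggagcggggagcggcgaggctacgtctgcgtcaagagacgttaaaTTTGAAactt
Cenpm (chr15:82244287-82244586, strand minus): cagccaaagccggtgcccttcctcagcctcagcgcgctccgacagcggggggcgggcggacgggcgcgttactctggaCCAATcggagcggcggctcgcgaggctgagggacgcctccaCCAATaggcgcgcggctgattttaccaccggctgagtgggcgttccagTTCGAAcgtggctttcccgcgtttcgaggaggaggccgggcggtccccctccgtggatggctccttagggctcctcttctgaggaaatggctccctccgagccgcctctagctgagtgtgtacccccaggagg
Hmmr (chr11:40733388-40733687, strand minus): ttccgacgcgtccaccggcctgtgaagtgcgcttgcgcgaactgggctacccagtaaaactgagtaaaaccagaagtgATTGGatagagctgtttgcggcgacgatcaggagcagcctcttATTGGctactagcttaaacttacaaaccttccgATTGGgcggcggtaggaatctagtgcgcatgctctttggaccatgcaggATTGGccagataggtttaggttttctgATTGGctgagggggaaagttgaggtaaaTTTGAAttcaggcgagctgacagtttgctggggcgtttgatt
Sgo1 (chr17:53689266-53689565, strand minus): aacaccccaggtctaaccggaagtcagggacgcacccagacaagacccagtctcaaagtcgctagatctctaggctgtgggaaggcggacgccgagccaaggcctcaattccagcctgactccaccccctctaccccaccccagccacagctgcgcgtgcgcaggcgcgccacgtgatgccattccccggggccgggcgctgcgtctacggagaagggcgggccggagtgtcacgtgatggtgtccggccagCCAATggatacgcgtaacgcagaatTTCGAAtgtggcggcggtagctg

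Knl1 (log2 ratio -0.72), the outer kinetochore scaffold, has 1 homology element match that begins 31 bases after the start and no CCAAT. Smc2 (-0.58), the condensin ATPase, has 2 homology matches and 1 CCAAT match, and Bub1b (-0.55), a checkpoint protein, has the same numbers. Hmmr (-0.37) has 5 CCAAT matches upstream and a homology match 8 bases after its start. Cenpm (-0.40) and Sgo1 (-0.29) carry the TTCGAA form.

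A homology element match was present in the windows of 25 of the 39 members (64.1%), compared with 16.1% of 10331 compared genes with a window and 19.2% of all 32851 windows. CCAAT was present for 29 members (74.4%), compared with 43.7% of the compared genes and 37.4% of all windows. Both were present for 23 members (59.0%), compared with 8.27% of compared genes. With a site that lies in several windows of a gene counted once, at its position nearest a start, 23 of 30 homology matches in members (76.7%) began within 100 bases before the start or after it, compared with 37.4% of 1907 matches in compared genes. Members with a homology match had a median log2 ratio of -0.30 and the 14 without one a median of -0.26, and their ranges overlapped (-0.72 to 0.03, and -0.51 to 0.10). Among all compared genes the medians were -0.09 with the match and -0.03 without it. The 8 members with no match to either motif in this window were Nuf2, Mad2l1, Pttg1, Dsn1, Birc5, Ncaph, Nusap1 and Cenpt, whose log2 ratios ran from -0.51 to 0.10 with a median of -0.35. A match is a run of letters and not a shown binding site.

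**Figure D2:**
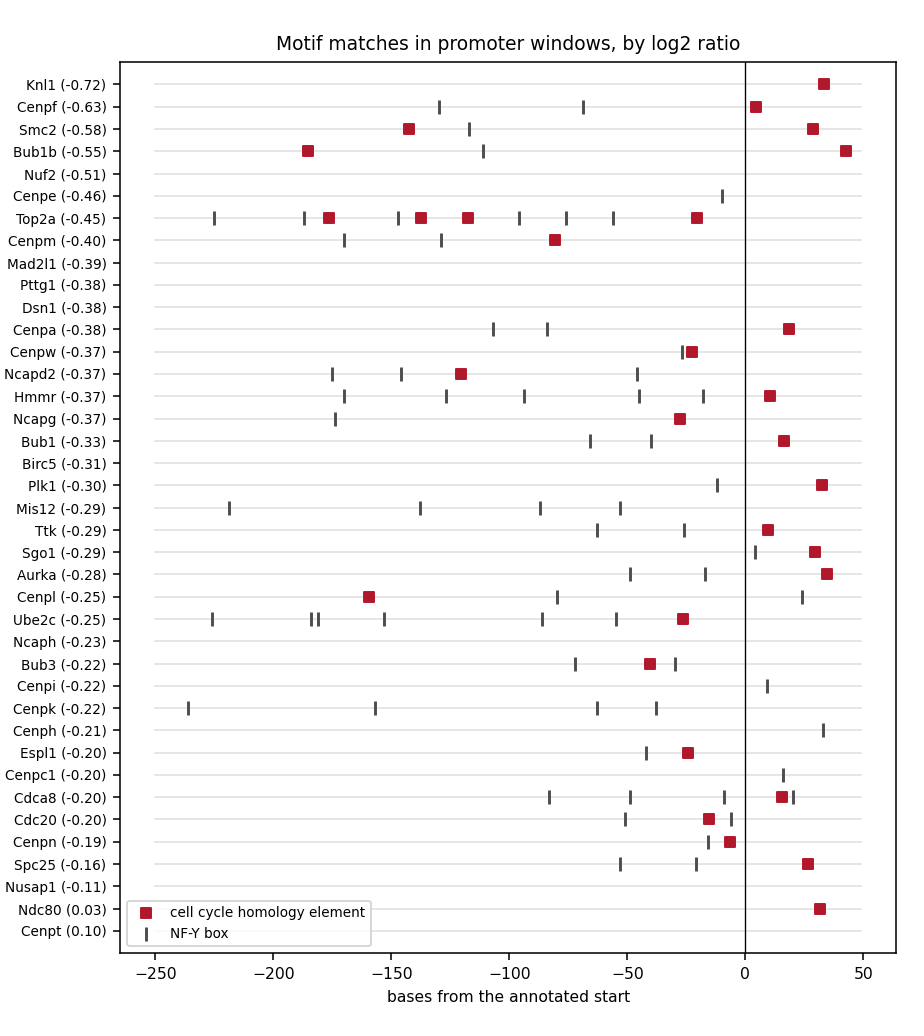
Positions of homology element matches (squares) and CCAAT matches (ticks, labelled NF-Y box) in the promoter windows of 39 members, in bases from the annotated start (vertical line), with genes ordered from the lowest log2 ratio (in parentheses) at the top. Matches of several windows of Bub3 or Cenpk share a line, and a site in several windows is drawn once, at its position nearest a start. The squares gather near the start, and genes with and without them occur toward both ends of the order.

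Among the centromere and inner kinetochore genes, 9 of 10 were lower in siChd4, with a median log2 ratio of -0.22. Cenpa, the histone H3 variant that marks the centromere, was at 208 TPM in siChd4 cells and 271 TPM in siSCR cells (fold 0.769, interval 0.719 to 0.821). Cenpm, a subunit of the group formed with Cenph, Cenpi and Cenpk that joins the inner layer to Cenpa chromatin, had the lowest ratio of this layer, at 65.6 TPM in siChd4 cells and 87.2 TPM in siSCR cells (fold 0.753, 0.666 to 0.849). Its partners differed less: Cenph was at 41.4 TPM in siChd4 cells and 48.2 TPM in siSCR cells, Cenpi at 30.6 TPM (siChd4) and 35.9 TPM (siSCR), and Cenpk at 31.8 TPM (siChd4) and 37.1 TPM (siSCR), each with a log2 ratio between -0.22 and -0.21. The interval of Cenpk (0.732 to 0.999) nearly reaches 1. The intervals of Cenph (0.750 to 0.983), Cenpi (0.774 to 0.944) and Cenpk each overlap that of Cenpm.

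Cenpc1, which bridges Cenpa nucleosomes and the outer kinetochore, was at 56.6 TPM in siChd4 cells and 65.2 TPM in siSCR cells. Cenpn, which reads the Cenpa nucleosome, was at 55.1 TPM in siChd4 cells and 63.0 TPM in siSCR cells, and its partner Cenpl at 20.3 TPM (siChd4) and 24.4 TPM (siSCR). Cenpt and Cenpw encode histone-fold partners that form a second bridge to the Ndc80 complex, and their values went opposite ways. Cenpw was at 41.2 TPM in siChd4 cells and 53.7 TPM in siSCR cells (TPM fold 0.768, 0.634 to 0.929), and its count-per-million ratio was 0.847 (0.700 to 1.03). Count-per-million ratios sit slightly above TPM ratios for all members, and for Cenpw the implied transcript length was also 1.06 times as long in siChd4 as in siSCR. Cenpt was at 69.6 TPM in siChd4 cells and 64.8 TPM in siSCR cells (fold 1.07, 0.980 to 1.18). The TPM ratio of Cenpw over Cenpt was 0.593 in siChd4 and 0.829 in siSCR.

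In the outer kinetochore 8 of 9 genes were lower, with a median of -0.38, or -0.27 after the length trend was subtracted. Both members at least 1.5-fold lower were in this group (4.47% of all genes were past that limit), and 0 remained past it after that subtraction. Knl1, the scaffold that recruits Bub1 and Bub3, was at 23.0 TPM in siChd4 cells and 38.7 TPM in siSCR cells (fold 0.595, 0.562 to 0.630), and 2.21% of compared genes had a lower log2 ratio. Its implied transcript length was 1.07 times as long in siChd4 as in siSCR, and its count-per-million ratio was 0.663 (0.626 to 0.702). Cenpf, a large coiled-coil protein of the outer kinetochore, was at 50.7 TPM in siChd4 cells and 78.9 TPM in siSCR cells (fold 0.642, 0.618 to 0.667). Cenpe, the kinesin that carries chromosomes toward the spindle equator, was at 41.6 TPM in siChd4 cells and 57.7 TPM in siSCR cells (fold 0.721, 0.686 to 0.759). These are the 3 members with the longest transcripts, from 7.76 to 10.5 kb, a property taken up below.

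The Ndc80 complex, the main microtubule coupler, did not move as a unit. Nuf2 was at 93.0 TPM in siChd4 cells and 133 TPM in siSCR cells (fold 0.701, 0.660 to 0.744), the fifth lowest ratio of the 44. Ndc80, which pairs with Nuf2 in the microtubule-binding head, was at 65.8 TPM in siChd4 cells and 64.4 TPM in siSCR cells (fold 1.02, 0.940 to 1.11). The intervals of the 2 genes do not overlap, and the TPM ratio of Nuf2 over Ndc80 was 1.41 in siChd4 and 2.06 in siSCR. Ndc80 shares part of its sequence with transcripts of other genes (17.2%, described below), so its level is less certain. Spc24 and Spc25, the kinetochore-side pair, were in between: Spc24 at 60.9 TPM in siChd4 cells and 72.3 TPM in siSCR cells, and Spc25 at 129 TPM (siChd4) and 145 TPM (siSCR). Of the Mis12 complex, which anchors Ndc80 to the inner layer, Dsn1 was at 38.2 TPM in siChd4 cells and 50.03 TPM in siSCR cells (fold 0.763, 0.690 to 0.843) and Mis12 at 42.3 TPM (siChd4) and 51.9 TPM (siSCR) (fold 0.814, 0.748 to 0.886).

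All 5 spindle checkpoint genes were lower (55.3% of all genes), with a median of -0.33. At least 1.2-fold lower were 4 of them (22.3% of all genes). Bub1b, which encodes BubR1 of the inhibitor of the anaphase-promoting complex, was at 75.8 TPM in siChd4 cells and 112 TPM in siSCR cells (fold 0.678, 0.642 to 0.716). Mad2l1, the Mad2 protein that binds Cdc20 in the same inhibitor, was at 109 TPM in siChd4 cells and 143 TPM in siSCR cells (fold 0.762, 0.712 to 0.816). The kinase gene Bub1 was at 48.3 TPM in siChd4 cells and 60.9 TPM in siSCR cells, and Ttk, the Mps1 kinase that starts the signal, at 51.6 TPM (siChd4) and 63.3 TPM (siSCR). Bub3, the adaptor that brings Bub1 and BubR1 to Knl1, was the least different, at 155 TPM in siChd4 cells and 181 TPM in siSCR cells (fold 0.855, 0.810 to 0.902). The interval of Bub1b lies below that of Bub3, so the checkpoint genes were unequally lower beyond counting error.

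The 4 genes of the chromosomal passenger complex, which corrects faulty attachments, were all lower. Their log2 ratios spanned 0.12, from -0.31 to -0.20. The kinase gene Aurkb was at 110 TPM in siChd4 cells and 131 TPM in siSCR cells, and the survivin gene Birc5 at 156 TPM (siChd4) and 195 TPM (siSCR) (fold 0.804, 0.751 to 0.859). The scaffold Incenp was at 117 TPM in siChd4 cells and 136 TPM in siSCR cells, and borealin (Cdca8) at 183 TPM (siChd4) and 210 TPM (siSCR). Cdca8 was the most abundant and Aurkb the least in each library, with a TPM ratio between them of 1.66 in siChd4 and 1.60 in siSCR.

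The 5 genes of mitotic kinases and spindle assembly were all lower, with a median of -0.28. Plk1, the kinase that acts from mitotic entry to cytokinesis, was at 137 TPM in siChd4 cells and 169 TPM in siSCR cells (fold 0.813, 0.770 to 0.858). Aurka, the centrosomal Aurora kinase, was at 94.3 TPM in siChd4 cells and 115 TPM in siSCR cells, and its activator Tpx2 at 210 TPM (siChd4) and 243 TPM (siSCR). Hmmr, a spindle protein also known as a hyaluronan receptor, had the lowest ratio of this group, at 66.5 TPM in siChd4 cells and 86.4 TPM in siSCR cells (fold 0.770, 0.726 to 0.815). Nusap1, which bundles spindle microtubules, was at 116 TPM in siChd4 cells and 125 TPM in siSCR cells (fold 0.925, 0.876 to 0.978), and the interval of its count-per-million ratio, 0.910 to 1.01, includes 1.

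All 6 condensin and topoisomerase genes were lower (55.3% of all genes), with a median of -0.37. At least 1.2-fold lower were 5 of them (22.3% of all genes). Top2a, the topoisomerase that untangles sister chromatids, had the most reads of any member (14355 estimated counts in siChd4 and 18575 in siSCR) and a fold of 0.733 (0.717 to 0.749). Smc2, an ATPase of the condensin ring, was at 87.3 TPM in siChd4 cells and 131 TPM in siSCR cells (fold 0.668, 0.642 to 0.696). Smc4, the ATPase that Smc2 pairs with, was at 161 TPM in siChd4 cells and 198 TPM in siSCR cells (fold 0.817, 0.788 to 0.848), and the intervals of the pair do not overlap. Of the non-ATPase subunits of condensin I, Ncapd2 was at 208 TPM in siChd4 cells and 269 TPM in siSCR cells, Ncapg at 64.7 TPM (siChd4) and 84.0 TPM (siSCR), and Ncaph, the kleisin that closes the ring, at 120 TPM (siChd4) and 141 TPM (siSCR).

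The 5 cohesion and anaphase genes were all lower, with a median of -0.25. Pttg1, the securin that inhibits separase, was at 87.4 TPM in siChd4 cells and 114 TPM in siSCR cells (fold 0.765, 0.683 to 0.857), and separase itself (Espl1) at 34.1 TPM (siChd4) and 39.3 TPM (siSCR) (fold 0.867, 0.813 to 0.923). Sgo1, the shugoshin that protects centromeric cohesin, was at 23.1 TPM in siChd4 cells and 28.4 TPM in siSCR cells. Cdc20, the activator of the anaphase-promoting complex, was at 259 TPM in siChd4 cells and 297 TPM in siSCR cells (fold 0.872, 0.834 to 0.912). Ube2c, the ubiquitin-conjugating enzyme of that complex, was at 289 TPM in siChd4 cells and 343 TPM in siSCR cells (fold 0.842, 0.794 to 0.893). The counting intervals of these 5 genes overlap one another.

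**Figure D3:**
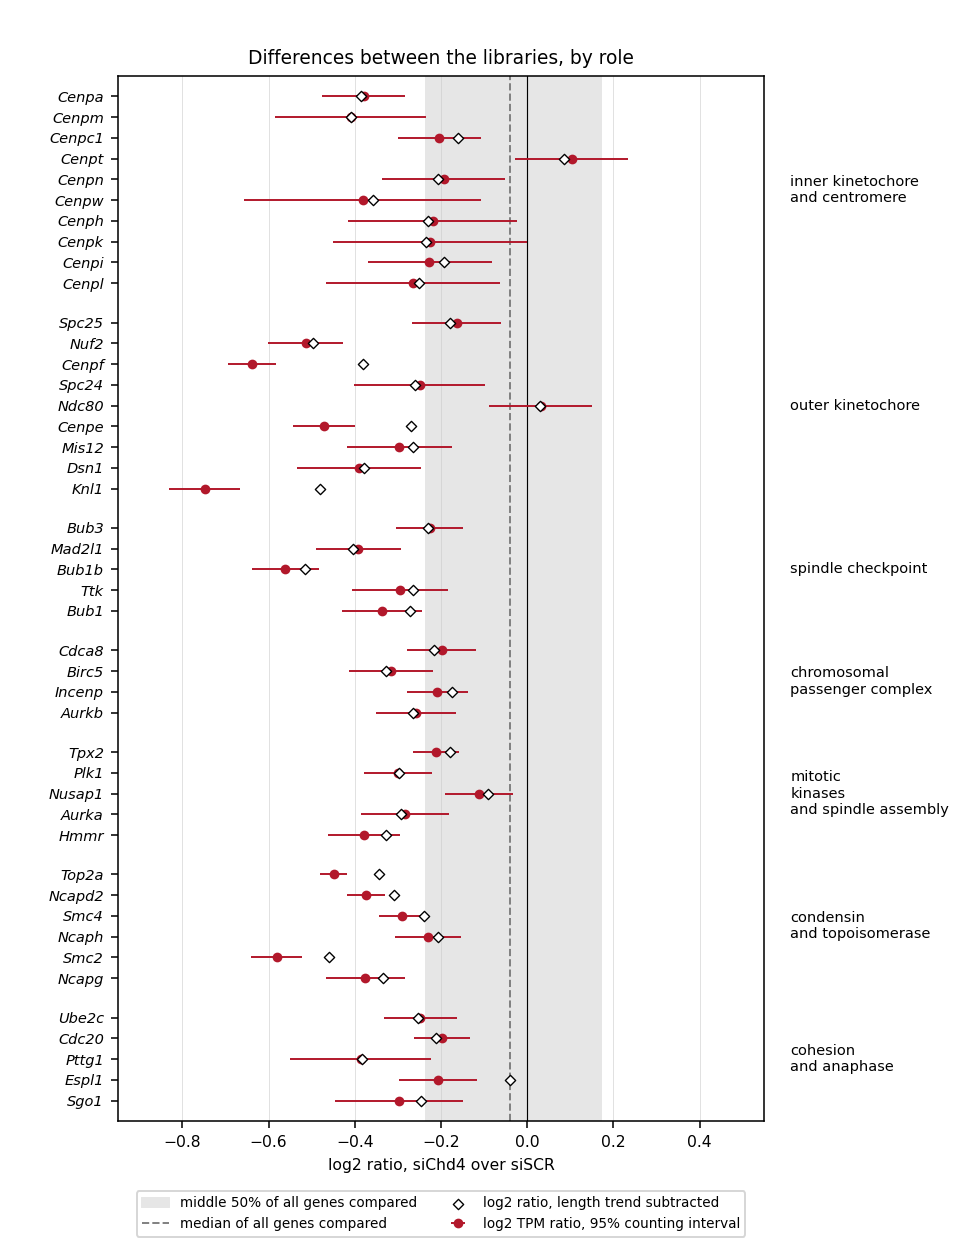
Log2 TPM ratio of siChd4 over siSCR for each member, with no pseudocount (filled circles) and its 95% counting interval (bars), by role; open diamonds give the log2 ratio of TPM plus 1 after subtraction of the trend with transcript length. The shaded band is the middle 50% of all compared genes (-0.24 to 0.17) and the dashed line their median (-0.04). Circles lie left of the band for most members, and for long genes such as Knl1, Cenpf, Cenpe and Smc2 the diamond lies right of the interval.

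Long transcripts had lower ratios in the whole table, and this touches several members. The transcript length implied by the estimated counts and FPKM ran from 0.583 kb (Cenpw) to 10.5 kb (Cenpf). Among the 9 members of at least 4 kb the median log2 ratio was -0.45, compared with -0.13 over 3985 compared genes of that length. Among the 10 members under 1.5 kb the median was -0.28, compared with 0.02 over 2132 genes, so short members were lower as well. The Spearman rho of log2 ratio with length was -0.29 across the 44 members and -0.18 across all compared genes. After the trend over all genes was subtracted, the members' median was -0.26 and 42 members remained below 0 (49.7% of all genes). The adjusted ratios were -0.48 for Knl1, -0.38 for Cenpf and -0.27 for Cenpe, and 0 members were then past 1.5-fold. The adjusted medians were -0.27 for the outer kinetochore and -0.32 for the condensin and topoisomerase genes. Bub1b (-0.52) and Nuf2 (-0.50) had the lowest adjusted ratios, and Espl1 moved to -0.04.

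**Figure D4:**
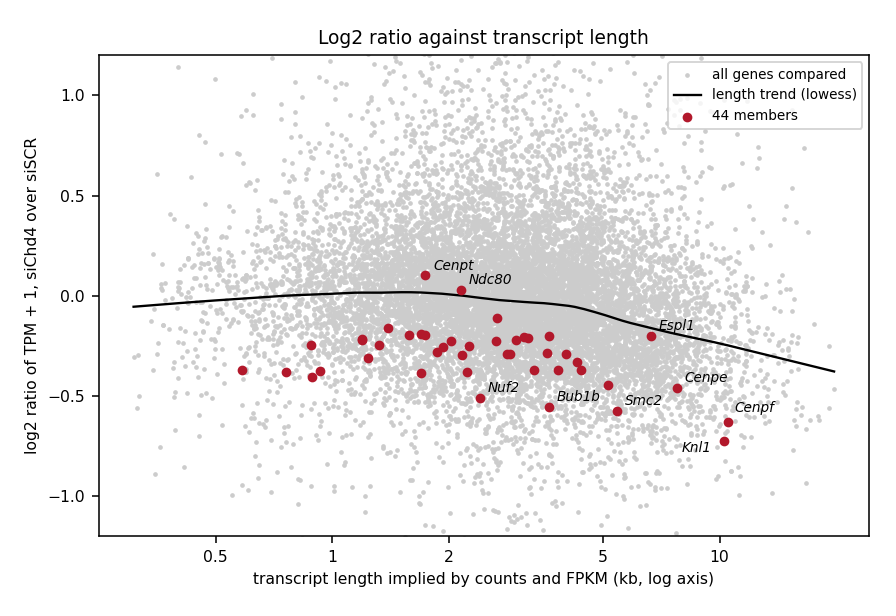
Log2 ratio of TPM plus 1, siChd4 over siSCR, against transcript length in kb (log axis) for all compared genes within the axes (grey), the 44 members (red) and the trend over all compared genes (line). Members lie below the line at every length except Cenpt and Ndc80, which lie above it.

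Other genes of the same machinery, from lists that do not hold the members, were mostly lower too. Of 25 other centromere and kinetochore genes, 20 were lower (55.3% of all genes) and 5 higher, with a median of -0.24. At least 1.2-fold lower were 12 (22.3% of all genes), and 1 was 1.2-fold higher (18.1% of all genes). The median of the 25 was -0.18 after the length trend was subtracted and -0.11 on CPM with TMM scaling. Their summed TPM ratio was 0.994, compared with 0.810 for the members. The gene past 1.2-fold higher was Zwint, which binds Knl1 at the outer kinetochore, at 485 TPM in siChd4 cells and 353 TPM in siSCR cells (fold 1.37, 1.33 to 1.43), while Knl1 was lower. Hjurp, the chaperone that deposits Cenpa, was at 243 TPM in siChd4 cells and 257 TPM in siSCR cells (fold 0.945, 0.918 to 0.974). The count-per-million ratio of Hjurp was slightly above 1, so its direction depended on the measure. Its implied transcript length was 1.02 times as long in siChd4 as in siSCR. After subtraction of the length trend its log2 ratio was -0.02. Of 23 other spindle and centrosome genes, 21 were lower (median -0.27), with Ckap2 at 260 TPM in siChd4 cells and 337 TPM in siSCR cells and the midzone crosslinker Prc1 at 197 TPM (siChd4) and 246 TPM (siSCR). Of 15 condensin II and cohesin genes, 14 were lower (median -0.35), and Pds5a, a regulator of cohesin on chromatin, was the 1 past 1.5-fold, at 56.5 TPM in siChd4 cells and 88.8 TPM in siSCR cells (fold 0.636, 0.607 to 0.665). Its count-per-million ratio was 0.706 and its log2 ratio after subtraction of the length trend -0.49, both short of 1.5-fold.

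The anaphase-promoting complex and its cofactors, most of which are present throughout the cell cycle, had no common direction. Of the 17, 8 were lower (55.3% of all genes) and 9 higher, with a median of 0.02. The most abundant of these 17 were the ubiquitin-conjugating enzyme gene Ube2s, at 553 TPM in siChd4 cells and 463 TPM in siSCR cells (fold 1.19, 1.14 to 1.25), and Anapc5, at 306 TPM (siChd4) and 334 TPM (siSCR). Ube2s elongates the ubiquitin chains that Ube2c starts, and the pair differed in opposite directions. The regulators of late cell cycle transcription (MuvB, B-Myb, FoxM1, E2F and NF-Y) had a median of -0.15, with 12 of 16 lower. The 4 higher ones were Lin37, Lin52, E2f4 and Nfya, with TPM folds from 1.02 to 1.06 and counting intervals that include 1. Foxm1 was at 92.5 TPM in siChd4 cells and 104 TPM in siSCR cells, Mybl2 at 47.4 TPM (siChd4) and 52.5 TPM (siSCR), and the homology element reader Lin54 at 28.8 TPM (siChd4) and 38.3 TPM (siSCR) (fold 0.754, 0.694 to 0.82). The E2F partner Tfdp2 was the 1 of the 16 past 1.5-fold, at 33.5 TPM in siChd4 cells and 51.9 TPM in siSCR cells, and its log2 ratio after subtraction of the length trend, -0.44, was short of that limit.

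Genes of DNA replication and S phase were lower by less. Their median was -0.17, with 29 of 30 lower (55.3% of all genes). At least 1.2-fold lower were 4 of them (13.3%), below the 22.3% of all genes, while 24 of the 44 members (54.5%) passed that limit. Pcna, the replication clamp, was at 811 TPM in siChd4 cells and 912 TPM in siSCR cells (fold 0.889, 0.863 to 0.917), and Rrm2, of nucleotide supply, at 609 TPM (siChd4) and 725 TPM (siSCR) (fold 0.840, 0.819 to 0.862). Whether the mitotic and replication lists differ was not tested, since there is 1 library per group.

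**Figure D5:**
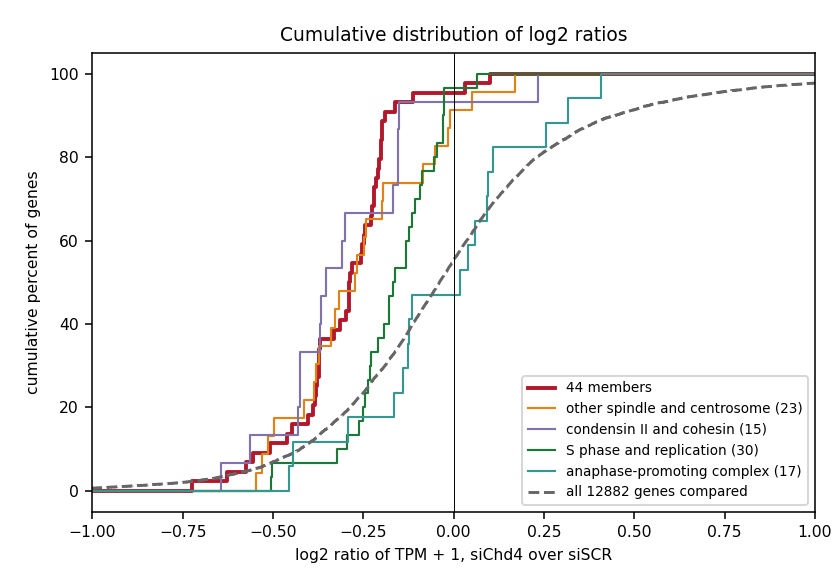
Cumulative percent of genes against the log2 ratio of TPM plus 1, siChd4 over siSCR, for the 44 members, 4 related lists (number of genes in parentheses) and all 12882 compared genes. The members' curve crosses 50% at -0.29, beside the other spindle and the condensin II and cohesin genes, while the S phase curve crosses at -0.17 and the curve of all genes at -0.04.

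Markers of other cell types moved between the libraries too, and their part in the lower mitotic values was not tested. Neuron markers were higher in 11 of 11 genes, where 55.3% of all genes were lower. Their summed level was 1073 TPM in siChd4 cells and 783 TPM in siSCR cells. Map2 and Gap43 made up most of that sum, and 5 of the 11 were past 1.5-fold (6.75% of all genes). The counting interval lay wholly above 1 for 9 of the 11 (25.1% of all genes), and the intervals of the others include 1. The largest log2 ratios of TPM plus 1 were those of Tubb3 (40.02 TPM in siChd4 cells and 8.70 TPM in siSCR cells, TPM fold 4.60), Ina (TPM fold 3.01), Dcx (2.93) and Snap25 (2.18). Oligodendrocyte lineage markers were higher in 8 of 8 compared genes (of 10 listed), with a sum of 272 TPM in siChd4 cells and 141 TPM in siSCR cells. Past 1.5-fold were 6 of the 8 (6.75% of all genes), among them Sox10 (7.71 TPM in siChd4 cells and 1.05 TPM in siSCR cells, fold 7.34), Cldn11 (5.97) and Cnp (1.98). The 12 neural stem and radial glia markers summed to 13726 TPM in siChd4 cells and 11622 TPM in siSCR cells, with 5 of 12 lower. Fabp7 made up most of that sum together with Vim (4835 TPM in siChd4 cells and 3340 TPM in siSCR cells), and both were higher in siChd4. Past 1.5-fold were Prom1 (fold 0.564) and Sox9 (81.1 TPM in siChd4 cells and 50.98 TPM in siSCR cells, fold 1.59). Astrocyte markers summed to 770 TPM in siChd4 cells and 744 TPM in siSCR cells, with 4 of 7 lower. Aldh1l1 was the most abundant of them in each library (421 TPM in siChd4 cells and 309 TPM in siSCR cells). Gja1 was at 40.8 TPM in siChd4 cells and 105 TPM in siSCR cells (fold 0.387, 0.360 to 0.416). Slc1a2 was at 58.4 TPM (siChd4) and 94.1 TPM (siSCR) (fold 0.621, 0.599 to 0.644). Microglia markers summed to 36.8 TPM in siChd4 cells and 7.08 TPM in siSCR cells, of which P2ry12 made up 36.1 TPM (siChd4) and 6.84 TPM (siSCR), while Cx3cr1 was at 0.03 TPM in each library and Aif1 was listed at 0 in siSCR. Fibroblast markers summed to 3.33 TPM in siChd4 cells and 1.42 TPM in siSCR cells, with Dcn and Lum listed at 0 in siSCR, and endothelial markers to 3.99 TPM (siChd4) and 2.72 TPM (siSCR).

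Some members share sequence with other transcripts, so that their reads could be divided between genes. In GENCODE M21, 6 members shared at least 10% of the 31-base words of their longest protein-coding transcript with transcripts of other genes. These were Cdc20 (28.7%, mostly with Gm7856), Ube2c (25.1%, mostly with Tnnc2 on the opposite strand), Ncapg (19.4%, with Lcorl on the opposite strand), Plk1 (19.2%, mostly with Plk-ps1), Ndc80 (17.2%, mostly with 2700099C18Rik) and Cenpc1 (14.8%, with Gm13477). Their levels are therefore less certain than those of the other 38, whose median log2 ratio was -0.29.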

How the data were processed

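The table holds 1 siChd4 and 1 siSCR library. Per the file headers, the authors deposited TPM, FPKM and read counts per gene. Deposited TPM adds up to 1000000 per library. Only 17.8% (siChd4) and 16.0% (siSCR) of the deposited counts are whole numbers, so they are estimated counts. The submitters' processing notes name mm39 as the build, and the aligner, counting tool and strand setting were not given in the sources at hand.

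Libraries were compared by the log2 ratio of TPM plus 1 over the 12882 genes averaging at least 1 TPM, a filter that all 44 members passed. It understates differences of low genes, so TPM folds are given beside it. Folds carry exact Clopper-Pearson 95% intervals from counts rounded to whole numbers, which treat reads as independent molecules. Calls were at 1.2-fold and 1.5-fold, with no test between conditions. Transcript length was counts over FPKM and library size, and its trend a lowess curve (span 0.3, statsmodels 0.14.6). TMM factors came from edgeR 4.0.16. The interval calculation was checked on whole counts simulated with counting error only. That check cannot show how well the intervals hold for estimated counts. The count floor of 3 is 0.149 CPM in siChd4 and 0.151 CPM in siSCR.

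All members are named. Of each related or marker list, genes past 1.5-fold (up to 4 per direction), or else the 2 most abundant, are named, apart from 1 gene not reported here. Foxm1, Mybl2, Lin54, Lin37, Lin52, E2f4 and Nfya were named after their values were seen. So were Sox2, Nes, Fabp7, Vim, Slc1a3, Notch1, Sox1, Pax6, Aldh1l1, Map2, Gap43 and the low markers. The members and lists were chosen with earlier results of these data known. Promoter windows are from RefSeq on GRCm38.p6, and transcripts from GENCODE M21, used for sequence only, since their build differs from that of the table.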

Additional observations from a re-analysis of the deposited data

How the results depend on the processing

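Under median-of-ratios or upper quartile scaling, a pseudocount of 0.1, CPM with TMM scaling, FPKM, subtraction of the length trend, no filter and a mean TPM of at least 5, the members' median log2 ratio stayed between -0.29 and -0.22, and its mean was -0.30. The median of all genes lay between -0.05 and 0.02. Under each of these settings 42 members stayed below 0, where the share of all genes ran from 47.7% (FPKM) to 57.2% (mean TPM of at least 5). Between 17 and 25 members were at least 1.2-fold lower, with the fewest on FPKM. The share of all genes past that limit was also lowest on FPKM (15.4%) and highest at a pseudocount of 0.1 (23.9%). By the counting interval of the TPM ratio, in place of 1.2-fold, 42 members were lower (34.1% of all genes). At least 1.5-fold lower was 1 member on FPKM (2.29% of all genes). After subtraction of the length trend 0 were (3.25% of all genes), since Knl1 and Cenpf have long transcripts. No filter and a mean TPM of at least 5 could not change any value of a member or related list, since all those genes pass both. Of 352 values of single members, those fixed ones included, 333 stayed within counting error, 19 moved toward 0 and 0 reversed. Of 104 medians of roles and related lists, 3 moved by more than the counting error of a typical single gene in the list. That limit is not the error of a median, which was not estimated. It counted the other centromere and kinetochore genes as unmoved at -0.11 on CPM with TMM scaling, compared with -0.24. The members' median minus the median of all genes stayed between -0.27 and -0.24 under each of these settings. The cause of the shifts of medians and single members was not tested apart from length. Depth limits the members of few counts most, as in the count-per-million interval of Cenpw (0.700 to 1.03). The count-per-million intervals of Cenpk, Cenph, Spc25, Nusap1, Ndc80 and Cenpt also include 1. No library could be left out. No paired analysis was possible because there was 1 library for each siRNA.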
